A study of Rattus norvegicus with 48 samples.

Results

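The precursor rno-mir-532 gives rise to a pair of mature miRNAs, miR-532-5p from its 5′ arm and miR-532-3p from its 3′ arm. Both were taken by name from the deposited table, so the set held 2 of the 143 miRNAs measured in 48 rat livers. All animals were male Sprague-Dawley rats, young adults when feeding began, pair-fed a Lieber-DeCarli liquid diet for several weeks with either ethanol (EtOH) or carbohydrate (CHO, maltose-dextran) as the part of the calories that differed. The surgery was a 70% partial hepatectomy (PHx), which takes out the left lateral lobe together with the medial lobes. Untreated animals of each diet were collected at 0, 6, 24, and 72 h. Further animals of each diet received saline or AM21, a locked nucleic acid oligonucleotide antisense to miR-21 given intraperitoneally at 7.5 mg/kg before and right after surgery, and were collected at 0 and 24 h. Samples at 0 h are the baseline without PHx, so only those at 24 h followed the dose given after surgery. Comparisons of AM21 over both times therefore join samples with different dosing. There were 16 groups of 3 animals. AM21 acts on the whole animal and not on a chosen cell type, and whole liver was assayed, so fewer cells of a type and less RNA per cell cannot be told apart.

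A miRNA is cut from a hairpin precursor by Drosha and Dicer, and either strand of the resulting duplex may be loaded into an Argonaute protein. The loaded strand then finds mRNAs mainly through its seed, bases 2 to 8, and lowers their stability or translation. Because the arms of one hairpin carry different seeds, they are expected to bind different mRNAs even though they share a precursor. The miR-532 hairpin belongs to a group of miRNA genes on the X chromosome that lie within the chloride channel gene Clcn5.

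The mature sequences are shown because each arm was counted by its own probe and because the seeds set each arm's possible targets. Sequences and positions are from RefSeq on build GRCr8, both members were matched, and capitals mark the seed.

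rno-miR-532-5p: cAUGCCUUgaguguaggacugu

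rno-miR-532-3p: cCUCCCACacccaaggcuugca

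In the hairpin of 79 bases, capitals mark the mature arms, which are separated by 15 bases.

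rno-mir-532 hairpin: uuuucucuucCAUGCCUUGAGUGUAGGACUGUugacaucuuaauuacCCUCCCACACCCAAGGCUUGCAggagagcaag

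The hairpin lies at chrX:17919185-17919263 on the plus strand, with miR-532-5p at chrX:17919195-17919216 and miR-532-3p at chrX:17919232-17919253, inside the span of Clcn5 (chrX:17857260-18011844). Mir188 begins 321 bases after its end, and Mir362, Mir501 and Mir500 follow at 7221, 7925 and 11383 bases on the same strand. These neighbours were not analysed here. Among the 693 mature rat miRNAs of the sequence table, the seed of miR-532-5p was shared with 1 other, rno-miR-511-5p. The seed of miR-532-3p was shared with no other, but the same 7 bases open rno-miR-188-3p, displaced by 1 position. Both are shown, with those 7 bases in capitals.

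rno-miR-511-5p: cAUGCCUUuugcucugcacuc

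rno-miR-188-3p: CUCCCACaugcaggguuugc

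In the NanoString nCounter assay, miRNAs are read without amplification, each by a coloured probe of its own. Values were deposited as log2 counts scaled to library size (log2 CPM), and the whole counts behind them were recovered. Library totals ran from 58168 to 267582 (median 160078). miR-122, the main hepatocyte miRNA, held 42.1% to 68.8% of them, so the tissue was liver as labelled. The labels place 0 and 24 h animals in sets numbered 1 to 3 and 6 and 72 h animals in set 4, without saying what a set is. A difference of 6 or 72 h from 0 h therefore cannot be told apart from a difference between sets, whereas 72 h against 6 h lies within set 4. A difference was called where limma, fitted over all 143 miRNAs, gave a p below 0.05 after Benjamini-Hochberg adjustment. The labels do not say how animals were matched, and p-values measure the spread between these animals.

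miR-532-5p was one of the steadiest miRNAs of the table. Its level was 9.13 to 10.09 log2 CPM over the 48 animals (median 9.45), from counts of 57 to 156 (median 115.5), and its median ranked 65 of 143. Its group means spanned 0.44 on the log2 scale, and 139 of the 143 miRNAs spanned more. The median SD within its groups was 0.14, against 0.23 for the median miRNA.

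miR-532-3p was the lower counted and the more variable arm. Its level was 6.30 to 9.04 log2 CPM (median 8.01), from counts of 8 to 71 (median 41), and its median ranked 124 of 143. Its group means spanned 1.06, close to the 0.996 of the median miRNA, and its median group SD was 0.24. At least 50 counts were reached in 48 animals for miR-532-5p and in 10 animals for miR-532-3p. Counting error alone, as a Poisson coefficient of variation, was 8.0% to 13.2% for miR-532-5p and 11.9% to 35.4% for miR-532-3p. The probes differ, so the levels do not say which arm was more abundant, and the arms are compared below only by how they changed.

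Ordered by mean, miR-532-5p was highest in AM21-treated rats on CHO at 0 h (9.73 ± 0.32, SD, n = 3) and lowest in saline-treated rats on EtOH at 0 h (9.29 ± 0.05). miR-532-3p was highest in untreated rats on CHO at 6 h (8.59 ± 0.25), followed by untreated rats on CHO at 0 h (8.54 ± 0.51) and rats on EtOH at 6 h (8.49 ± 0.15), and lowest in saline-treated rats on EtOH at 24 h (7.53 ± 0.39). For each arm, 0 of the 15 pairs of neighbours in this order had animals that did not overlap.

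**Figure D1:**
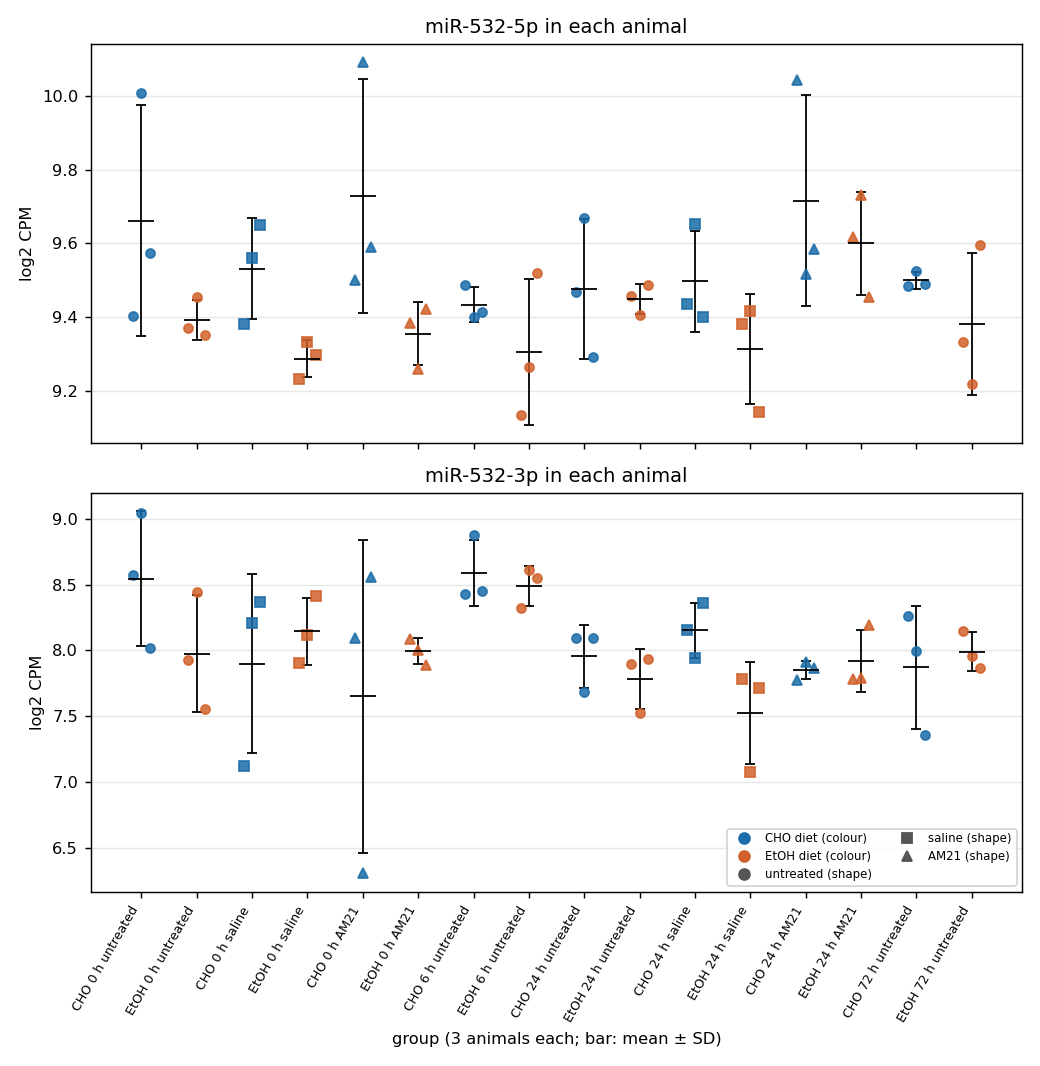
Level of miR-532-5p (top) and miR-532-3p (bottom) in log2 CPM in each of the 48 animals, by group on the x axis, where colour marks the diet, shape marks the treatment, and black bars give the mean ± SD of 3 animals. The y axes differ and do not start at 0, and the lowest point is the 6.30 log2 CPM of miR-532-3p in an AM21-treated CHO-fed animal at 0 h.

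Over the untreated time course, miR-532-3p fell between 6 and 72 h in rats on CHO and had no other called change, whereas miR-532-5p had none. In rats on CHO, miR-532-3p started at 8.58, 9.04 and 8.02 log2 CPM at 0 h and stood at 8.43, 8.87 and 8.45 at 6 h. The 24 h values were 8.09, 7.68 and 8.09, followed at 72 h by 8.26, 7.995 and 7.35. All 3 animals at 72 h were below all 3 at 6 h, whereas 0 h overlapped with every later time. For 44.1% of all miRNAs the 6 and 72 h animals on this diet did not overlap. On EtOH it started at 7.92, 8.44 and 7.56 and stood at 8.32, 8.61 and 8.55 at 6 h. The 24 h values were 7.89, 7.52 and 7.94, followed at 72 h by 8.15, 7.95 and 7.86. The 3 animals at 6 h were above all 3 at 72 h, and 0 h overlapped with every later time. The background share without overlap between 6 and 72 h was 47.6%. In each diet the 6 h animals also lay above those at 24 h. Those 2 times are of different sets, and the share of all miRNAs for that comparison is not given here.

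The difference of 72 h from 6 h in miR-532-3p was -0.72 on the log2 scale in rats on CHO (SE 0.26, 95% interval -1.25 to -0.18, limma adjusted p = 0.0414). In that comparison 30.8% of all miRNAs were called. In rats on EtOH the difference was -0.50 (SE 0.26, interval -1.04 to 0.03, adjusted p = 0.138), with 37.1% of all miRNAs called. The diets were not shown to differ in their time course, since the diet by time F test gave an adjusted p of 1.00 for each arm, and limma called 0% of all miRNAs in it (8 at an unadjusted p under 0.05, and 0 called with voom weights).

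The call in rats on CHO was lost after 4 of the 6 single omissions and with total count as a covariate. Without replicate 4_1 the difference was -0.79 (adjusted p = 0.0639) and without 4_8 it was -0.78 (0.0610), both larger than with all animals. Without replicate 4_2 it was -0.57 (0.172) and without 4_9 it was -0.46 (0.249). The call was kept without replicate 4_3 (-0.78, adjusted p = 0.0478) or 4_7 (-0.91, 0.0259). Adjusted for log10 total count, the difference was -0.43 (adjusted p = 0.388).

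The mean recovered count of miR-532-3p was not lower at 72 h than at 6 h in either diet. In rats on CHO miR-532-3p had 31, 45 and 45 counts at 6 h and 58, 44 and 31 at 72 h, means of 40.3 ± 8.1 and 44.3 ± 13.5. On EtOH it had 55, 36 and 42 counts at 6 h and 61, 55 and 37 at 72 h, means of 44.3 ± 9.7 and 51.0 ± 12.5. The mean total count of the same livers was 1.88 times as high at 72 h as at 6 h on CHO and 1.70 times on EtOH. Counts of miR-532-3p thus overlapped between the times in each diet while the mean totals were larger at 72 h. On CHO the totals did not overlap (87009 to 134618 at 6 h, 171919 to 209221 at 72 h). On EtOH they did (97827 to 196972 and 163533 to 267582). The deposited values were scaled by totals that the authors had adjusted (TMM), not by these totals as such. Without scaling, the difference of miR-532-3p was 0.11 on the log2 scale on CHO and 0.19 on EtOH, neither called. For miR-532-5p the counts did move with the totals, from 65, 65 and 88 to 136, 128 and 138 in rats on CHO and from 97, 57 and 83 to 139, 133 and 124 in rats on EtOH.

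**Figure D2:**
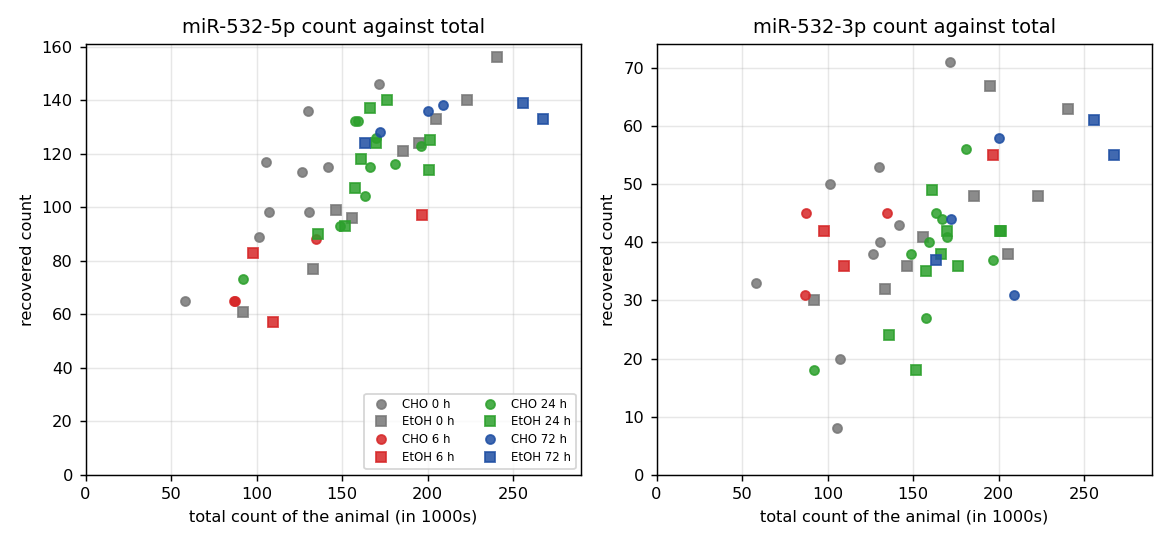
Recovered count of miR-532-5p (left) and miR-532-3p (right) against the total count of the animal, 48 animals, coloured by time after PHx, with circles for CHO and squares for EtOH. At 72 h miR-532-5p lies between 124 and 139 counts and above its 57 to 97 counts at 6 h, while the counts of miR-532-3p at both times overlap.

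Against 0 h, none of the time points was called for either arm. The differences of miR-532-3p in rats on CHO were 0.04, -0.59 and -0.67 after 6, 24 and 72 h, and the adjusted p were 0.930, 0.146 and 0.0584. Over all miRNAs, 2.1%, 1.4% and 18.2% were called at these times. On EtOH its differences were 0.52, -0.19 and 0.01, with adjusted p of 0.173, 0.660 and 0.962, beside 11.2%, 1.4% and 18.2% of all miRNAs. With saline-treated animals counted with the untreated, the differences of miR-532-3p at 24 h were -0.17 on CHO and -0.41 on EtOH (adjusted p = 0.562 and 0.188), so the order of the diets was turned. After a single omission, 3 of these differences of miR-532-3p passed the threshold. Without replicate 3 of the CHO-fed 0 h animals, the difference was -0.94 at 72 h (adjusted p = 0.0190) and -0.85 at 24 h (0.0443), and without replicate 2 of the EtOH-fed 0 h animals it was 0.75 at 6 h (0.0387).

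miR-532-5p moved less. On CHO its values were 9.40, 10.01 and 9.58 log2 CPM at 0 h, 9.49, 9.40 and 9.41 by 6 h, 9.47, 9.67 and 9.29 by 24 h, and 9.48, 9.52 and 9.49 by 72 h. On EtOH they were 9.37, 9.45 and 9.35 at baseline (0 h), 9.13, 9.26 and 9.52 by 6 h, 9.46, 9.41 and 9.49 by 24 h, and 9.33, 9.22 and 9.60 by 72 h. The times overlapped in both diets, and the highest of these values, 10.01 in replicate 2 of the rats on CHO at 0 h, came from the smallest library of all (58168 counts). The 6 differences from 0 h lay between -0.23 and 0.06, with adjusted p from 0.371 to 0.962. Between 6 and 72 h they were 0.07 and 0.08 (adjusted p = 0.777 and 0.759).

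**Figure D3:**
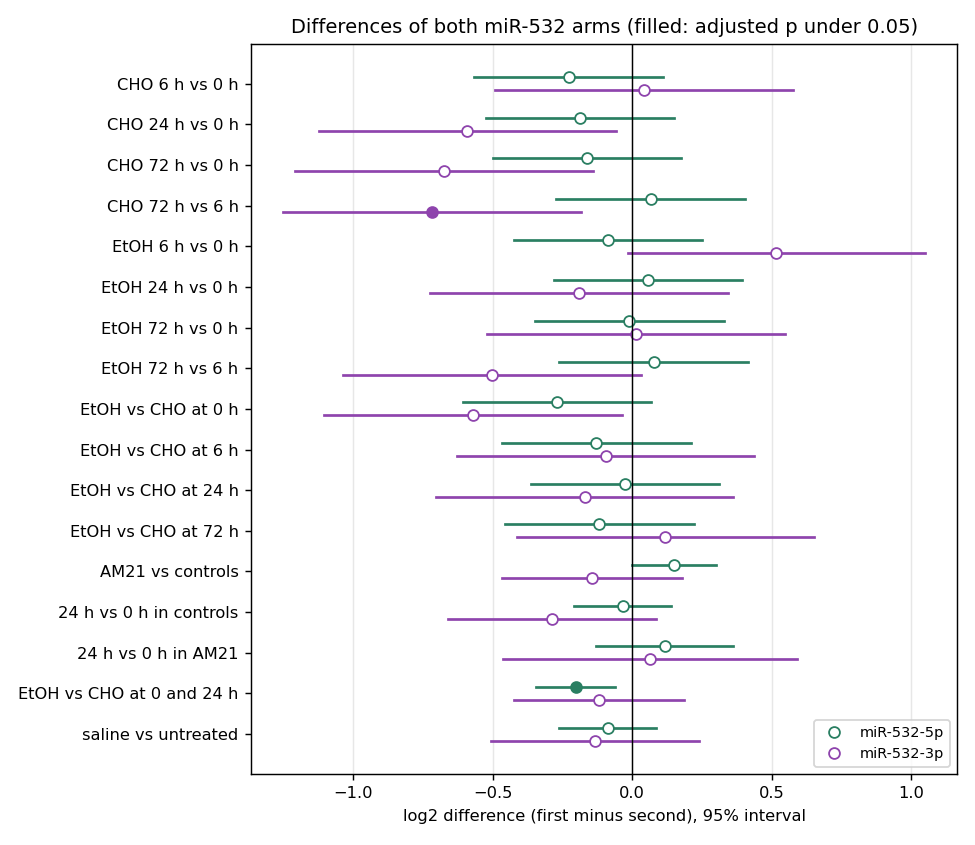
Difference on the log2 scale (first group minus second, x axis) with its 95% interval from limma for miR-532-5p and miR-532-3p in each pairwise comparison (y axis), with filled points at an adjusted p under 0.05. The filled points are miR-532-3p at 72 h against 6 h in rats on CHO (-0.72) and miR-532-5p in rats on EtOH against rats on CHO at 0 and 24 h (-0.20).

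Ethanol was associated with a lower level of miR-532-5p over the 36 animals at 0 and 24 h. The difference of rats on EtOH from rats on CHO, averaged over times and treatments, was -0.20 on the log2 scale (SE 0.07, interval -0.34 to -0.06, limma adjusted p = 0.0488, 18 animals against 18), with 14% of all miRNAs called. The mean was lower in rats on EtOH in 8 of 8 pairs of groups matched by time and treatment. The pairs at 0 and 24 h hold the animals of the pooled difference, as do sets 1 to 3 below, so they restate it. By pair the difference was -0.27 untreated, -0.24 with saline and -0.37 with AM21 at baseline (0 h). In the same order it was -0.03, -0.18 and -0.11 after 24 h, and untreated animals gave -0.13 at 6 h and -0.12 at 72 h. The animals of the diets did not overlap in 2 pairs, both at 0 h. With saline they were 9.38, 9.56 and 9.65 on CHO against 9.23, 9.33 and 9.30 on EtOH, and with AM21 they were 9.50, 10.09 and 9.59 against 9.38, 9.26 and 9.42. In untreated animals the diets did not overlap for 16.1%, 14%, 22.4% and 18.2% of all miRNAs at 0, 6, 24 and 72 h. The share with saline or AM21 is not given here. Within sets 1, 2 and 3 the difference was -0.13, -0.32 and -0.16. The untreated difference at 0 h was -0.10 without replicate 2 of the rats on CHO, the smallest library, and -0.40 without replicate 1.

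This call lay close to the threshold. It was kept without any single one of 12 of the 36 animals and lost without any one of the 24 others, with differences from -0.22 to -0.17 and adjusted p from 0.0300 to 0.0795. The 12 were, on CHO, untreated replicates 1 and 3, saline replicate 1 and AM21 replicates 1 and 3 at 0 h, and untreated replicate 3, saline replicate 1 and AM21 replicates 2 and 3 at 24 h. On EtOH they were untreated replicate 2 at 0 h, and saline replicate 2 and AM21 replicate 2 at 24 h. Total counts moved with the diet, with a median of 145313 (58168 to 196468) on CHO and 168308 (92245 to 240355) on EtOH at 0 and 24 h. Adjusted for log10 total count, the difference was -0.12 (adjusted p = 0.339).

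In the untreated animals alone, no single time was called for either arm between diets. For miR-532-5p the adjusted p was 0.453, 0.867, 0.985 and 0.824 at 0, 6, 24 and 72 h, beside 2.1%, 0%, 2.1% and 0% of all miRNAs called by limma. At 6 and 72 h, 13 and 14 miRNAs had an unadjusted p under 0.05, and voom weights called 1 and 0. For miR-532-3p the differences were -0.57, -0.10, -0.17 and 0.12 (adjusted p = 0.222, 0.946, 0.851 and 0.883). Its difference at 0 h was -0.32 without replicate 2 of the rats on CHO and -0.83 without replicate 3, and on EtOH -0.80 without replicate 2 and -0.36 without replicate 3. Over the 36 animals at 0 and 24 h its difference was -0.12 (SE 0.15, adjusted p = 0.598), and it was lower in rats on EtOH in 4 of 8 matched pairs of groups.

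Neither arm had a called response to AM21. miR-532-5p was 0.15 higher on the log2 scale in the 12 AM21-treated than in the 24 control animals (SE 0.07, interval -0.002 to 0.299, limma adjusted p = 0.324), with 5.59% of all miRNAs called. AM21-treated rats on CHO had 9.50, 10.09 and 9.59 at 0 h and 10.04, 9.52 and 9.58 at 24 h, and rats on EtOH had 9.38, 9.26 and 9.42, and then 9.62, 9.73 and 9.45. In each diet and at each time these animals overlapped with the controls. miR-532-3p differed by -0.14 (SE 0.16, adjusted p = 0.595). It was 8.09, 6.30 and 8.56 in AM21-treated rats on CHO at 0 h, and 7.78, 7.91 and 7.86 at 24 h. On EtOH it was 8.08, 8.004 and 7.89, and then 7.78, 7.79 and 8.19. The value of 6.30 rested on 8 counts, the lowest of all 143 miRNAs in that liver (replicate 2), and without it the difference was 0.02.

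From 0 to 24 h, miR-532-5p differed by -0.03 in control animals (adjusted p = 0.768, 34.3% of all miRNAs called) and by 0.12 in AM21-treated animals (adjusted p = 0.506, 14% called). miR-532-3p differed by -0.29 and 0.06 (adjusted p = 0.216 and 0.867). The AM21 by time interaction was 0.15 for miR-532-5p and 0.35 for miR-532-3p (adjusted p = 0.998 for each), with limma calling 0% of all miRNAs (4 at an unadjusted p under 0.05, and 0 called with voom weights). Saline against untreated gave -0.09 for miR-532-5p and -0.13 for miR-532-3p (adjusted p = 0.971 for each, 1.4% of all miRNAs called). The saline-treated values of miR-532-3p were 7.12, 8.21 and 8.37 at 0 h and 8.16, 7.94 and 8.36 at 24 h on CHO, and 7.91, 8.11 and 8.41, and then 7.78, 7.08 and 7.71 on EtOH. At 24 h with saline, the animals of the diets did not overlap for miR-532-3p, in 1 of 8 matched pairs of groups. In untreated animals at 24 h, the diets did not overlap for 22.4% of all miRNAs. For miR-532-5p the saline values at 24 h were 9.44, 9.65 and 9.40 on CHO and 9.38, 9.42 and 9.14 on EtOH.

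The arms were then set against each other within each liver, as log2 CPM of miR-532-5p minus log2 CPM of miR-532-3p. A change in this arm difference is free of the scale factor of each library, since both arms share it. A dependence on depth that differs between the arms would remain, and the arm difference was not fitted with total count. It was 0.83 ± 0.21 at 6 h and 1.27 ± 0.39 at 0 h (SD, n = 6 untreated animals of both diets), a difference of -0.44 with an exact permutation p of 0.055 (two-sided, stratified by diet, adjusted p = 0.225 over 5 tests). At 24 h it was 1.59 ± 0.30, with a difference of 0.33 from 0 h (exact permutation p = 0.135, adjusted 0.225). At 72 h it was 1.51 ± 0.37, with a difference of 0.24 (exact permutation p = 0.325, adjusted 0.406). The 3 tests share the 0 h animals. Rats on EtOH and on CHO differed by 0.04 (exact permutation p = 0.747). AM21-treated animals had a mean of 1.75 ± 0.73 (n = 12) and controls of 1.45 ± 0.40 (n = 24), a difference of 0.29 (permutation p = 0.122, adjusted 0.225). The AM21 mean includes 3.79 in the liver with 8 counts of miR-532-3p, without which the difference was smaller, at 0.08. None of the 5 tests passed the threshold. The 6 h and 72 h animals, both of set 4, were compared after their values had been seen. All 6 livers at 72 h (1.18 to 2.14) lay above all 6 at 6 h (0.53 to 1.06), a difference of 0.68. The exact permutation p was 0.005, the smallest that this design allows (stratified by diet, adjusted p = 0.03 over 6 tests). The adjustment does not cover the choice of this pair with its values known, so these p-values are descriptive only. Single omissions gave 0.55 to 0.78, and the adjusted exact p was 0.06 without replicate 4_1, 4_2, 4_3 or 4_5 at 6 h. Mean total counts were 1.88 times as high at 72 h as at 6 h on CHO and 1.70 times on EtOH. The part of depth in this difference was not tested.

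**Figure D4:**
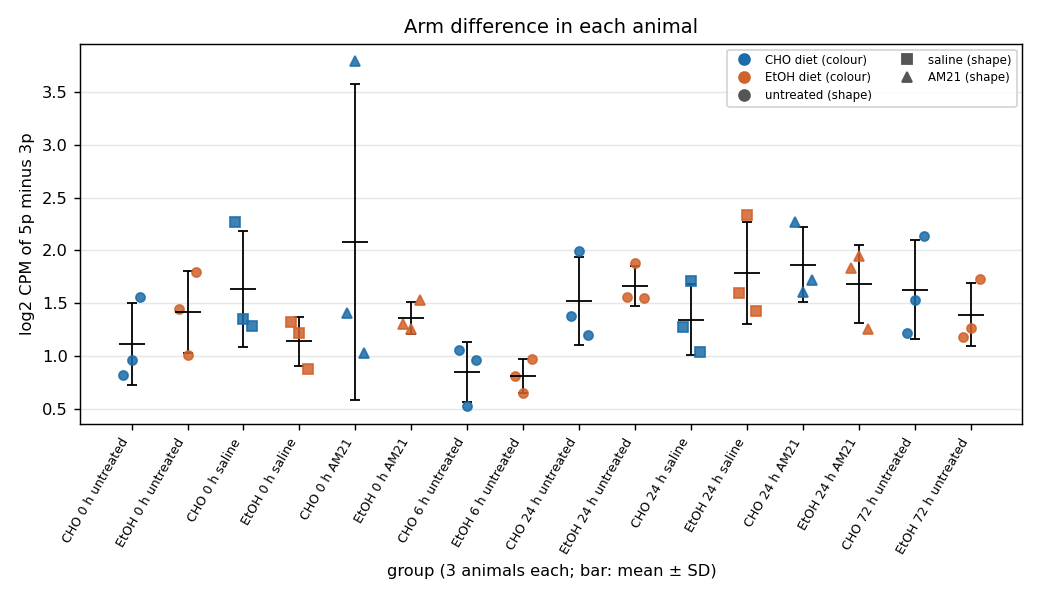
Arm difference, log2 CPM of miR-532-5p minus log2 CPM of miR-532-3p, in each of the 48 animals by group, with colour for diet, shape for treatment and black bars for the mean ± SD of 3 animals. The 6 animals at 6 h lie between 0.53 and 1.06, and the highest point is 3.79 in an AM21-treated CHO-fed animal at 0 h.

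From liver to liver, no joint variation of the arms was detected. Over the 48 animals Pearson's r was -0.18 (permutation p = 0.210, adjusted 0.280 over 4 relations) and Spearman's rho was -0.11 (permutation p = 0.440, adjusted 0.589). Without the 2 animals farthest from the median of miR-532-5p, r was 0.15. After removing group means, r was -0.22 (permutation p = 0.131, adjusted 0.262) and rho -0.11 (permutation p = 0.442), and r was -0.12 without the 2 farthest. Within sets 1 to 4 these residual correlations were 0.02, -0.35, -0.06 and -0.02.

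The level of miR-532-5p moved with the depth of the library. After removing group means, its r with log10 total count was -0.53 (permutation p = 8e-05, adjusted 0.00032) and its rho -0.45 (permutation p = 0.00151, adjusted 0.00604). The permutation shuffled all 48 residuals freely, though removing the mean of each group of 3 ties them. These p-values, and those of the other residual correlations, can therefore be too small. Without the 2 animals whose total, after removing group means, lay farthest from the median, r was -0.47. Within sets 1 to 4 it was -0.17, -0.32, -0.19 and -0.80, so it was negative in each and strongest in set 4. For miR-532-3p r was 0.04 and rho 0.03 (adjusted permutation p = 0.768 and 0.846), with 0.43, -0.10, -0.50 and -0.25 within the sets, and r was 0.19 without the 2 farthest. On log2 scales, counts rose with total count over all animals with a slope of 0.65 for miR-532-5p and 0.56 for miR-532-3p, beside a median of 0.84 over the 143 miRNAs, where a slope of 1 would leave CPM level. After removing group means the slopes were 0.70 and 1.01, beside a median of 0.95. Of the 143 miRNAs, 47 had a smaller slope than miR-532-5p over all animals and 34 after removing group means. A slope this low was thus not particular to miR-532-5p. The 53 miRNAs with mean counts of 25 to 60, among which miR-532-3p falls, had median slopes of 0.65 over all animals and 0.66 after removing group means.

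Over the 16 group means, the miRNAs most like miR-532-5p were miR-582 (r = 0.66), miR-26b (0.53) and miR-450a (0.52). Those most like miR-532-3p were miR-125a-5p (0.89), miR-741-3p (0.85) and miR-125b-5p (0.75). Each arm was far down the other's list, at rank 97 and 94 of 142 with r = -0.14. These points share the animals and the scaling, and they are given as a description. Between 6 and 72 h miR-125a-5p differed by -0.76 on CHO and -0.82 on EtOH, miR-741-3p by -0.39 and -0.59, and miR-125b-5p by -0.91 and -1.08. They were chosen for their likeness over groups that include these, so no test is given.

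The table lists rno-miR-511 with no arm given, so whether its probe reads miR-511-5p, which shares the seed of miR-532-5p, is not known here. Its difference between diets over the animals at 0 and 24 h was -0.07 (SE 0.10, limma adjusted p = 0.634), where that of miR-532-5p was -0.20. This average covers differences of both signs. In untreated animals rats on EtOH differed from rats on CHO by -0.69 at 0 h and 0.39 at 24 h (limma adjusted p = 0.157 and 0.604). Between 6 and 72 h miR-511 differed by -0.36 on CHO and -0.46 on EtOH (adjusted p = 0.311 and 0.166), and the groups overlapped in each diet.

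Both arms belong to a list of miRNAs enriched in liver sinusoidal endothelial cells (LSECs), the cells that line the liver's capillaries, which the study used. The study marked 30 miRNAs of that list as present in its own data, and 25 of them were found by name in the table. Between 6 and 72 h, 5 of the 25 rose and 8 fell in rats on CHO, with miR-532-3p among those that fell, and the list's median was -0.10 beside -0.01 over all miRNAs, of which 30.8% were called (21 higher and 23 lower). In rats on EtOH 5 rose and 6 fell, neither arm among them, with medians of 0.08 and 0.05 and 37.1% of all miRNAs called (31 higher and 22 lower). At 72 h against 0 h, the highest in the list were miR-16 (1.36) and miR-335 (0.71) in rats on CHO, of which miR-335 was not called (adjusted p = 0.145), and the lowest were miR-181a (-0.86) and miR-10a-5p (-0.85). In rats on EtOH they were miR-16 (1.26) and miR-374 (0.67), and miR-181a (-0.95) and miR-145 (-0.89). Each of these changes except that of miR-335 was called. They are the extremes of the list. In that comparison 1 of the 25 rose and 4 fell on CHO, and 2 rose and 4 fell on EtOH. In each diet 18.2% of all miRNAs were called, and 0 and 72 h are of different sets.

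Cell type markers moved beside the change of miR-532-3p from 6 to 72 h in rats on CHO, in a comparison that called 30.8% of all miRNAs (37.1% on EtOH). The marker lists are not separate from the LSEC list, which also holds miR-145, miR-199a-5p, miR-142-3p and miR-150. miR-126, the single measured miRNA of the endothelial marker list, differed by 0.62 (limma adjusted p = 0.114), opposite to miR-532-3p. In rats on EtOH it rose by 1.05 (adjusted p = 0.00754). Of the red blood cell markers miR-451 and miR-144, 2 of 2 fell in rats on CHO, with their summed level at 10.5 to 11.1 log2 CPM at 6 h and 9.1 to 9.4 at 72 h. On EtOH they differed by -0.25 and 0.30, neither called. Of 3 measured stellate and mesenchymal markers 1 fell in each diet, miR-145, with summed levels of 14.5 to 14.9 at 6 h and 13.7 to 14.4 at 72 h in rats on CHO. The others, miR-199a-3p and miR-199a-5p, were not called and differed the other way, by 0.49 and 0.30 on CHO and by 0.37 and 0.42 on EtOH. Of 3 leukocyte markers 1 rose and 1 fell in each diet, with summed levels of 11.3 to 11.9 at 6 h and 11.3 to 11.7 at 72 h on CHO. Of 3 hepatocyte markers 1 rose in each diet, miR-192, with summed levels of 19.0 to 19.2 and 19.1 to 19.4 on CHO. Beside the lower miR-532-5p of rats on EtOH at 0 and 24 h, 1 of 3 hepatocyte markers was higher (miR-194, by 0.33), 1 of 3 stellate and mesenchymal markers was lower (miR-199a-5p, -0.28), and none of the endothelial, leukocyte and red blood cell markers was called, against 14% of all miRNAs. Their part in these results was not tested.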

How the data were processed

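Liver miRNAs of 48 rats in 16 groups were assayed on NanoString nCounter. The authors deposited log2 CPM for 143 miRNAs, made from raw counts by TMM scaling and voom, and the filter that kept these miRNAs is not given in the sources used here. Counts were recovered from those values with voom's pseudocount of 0.5, each within 0.001 of a whole number. The deposited log2 CPM were fitted with limma 3.58.1 (lmFit, then eBayes; R 4.3.3), with a mean for each group, over the 24 untreated animals (times, diets) or the 36 animals at 0 and 24 h (AM21, saline, pooled diets). Arm differences and correlations used permutation tests written with NumPy 2.4.6 (exact, or 100000 resamples), with ranks from SciPy 1.17.1. Scripts were tested on simulated data. The members and lists were chosen with earlier results of these data known. Named miRNAs were the members, the LSEC list, the 3 most alike by group means and those sharing a seed.

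Same-numbered animals deviated together (r over 0.1 in all 3 pairs) in 10 of 66 pairs of groups. Among them were untreated CHO-fed animals at 0 and 24 h (0.12, 0.30, 0.28), untreated diets at 0 h (0.52, 0.79, 0.65), saline diets at 24 h (0.24, 0.20, 0.20), saline EtOH-fed animals at 0 and 24 h (0.42, 0.11, 0.33), and untreated and AM21-treated EtOH-fed animals at 24 h (0.20, 0.17, 0.23). Alternatives were RLE and top-100 scaling, a filter of 50 counts in 3 animals, voom weights, a pseudocount of 5, the replicate block, fits on only the groups compared, saline and untreated animals in one group, total count as a covariate and single omissions.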

Additional observations from a re-analysis of the deposited data

How the results depend on the processing

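Of 257 values recomputed for 46 comparisons or arm tests under another setting, 241 kept their direction and their side of the threshold. Scaled by RLE size factors, miR-532-3p at 72 h against 0 h in EtOH-fed animals turned to -0.0613. Scaled to the 100 highest probes it was -0.00597, and miR-532-5p turned to -0.0361 at 72 h against 6 h in CHO-fed animals, 0.0441 at 6 h against 0 h and -0.0745 at 72 h against 6 h in EtOH-fed animals. With total count as a covariate, miR-532-5p turned to 0.13 and 0.17 at 72 h against 0 h on CHO and on EtOH, 0.0532 between diets at 24 h and 0.0368 at 24 h against 0 h in controls, and miR-532-3p to 0.0098 between diets at 6 h. In that fit both calls were lost, at -0.43 for miR-532-3p at 72 h against 6 h in CHO-fed animals and -0.12 for miR-532-5p between diets. Fitted on only the groups compared, miR-532-3p at 72 h against 6 h in EtOH-fed animals was called at -0.50 (limma adjusted p = 0.0305). Without scaling of the counts, chosen after seeing the data, 72 h against 6 h gave 0.11 on CHO and 0.19 on EtOH for miR-532-3p, and 0.89 (called) for miR-532-5p on CHO. The cause was not tested. The replicate block changed no call, and it gave -0.20 (adjusted p = 0.0359) for miR-532-5p between diets at 0 and 24 h.

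Of 636 single omissions 580 changed neither direction nor call, with the 2 animals left in a group assumed to vary like the other groups. For miR-532-3p in CHO-fed animals they gave -0.22 to 0.29 at 6 h against 0 h, -0.85 to -0.34 at 24 h, -0.94 to -0.42 at 72 h and -0.91 to -0.46 at 72 h against 6 h. In EtOH-fed animals they gave 0.31 to 0.75, -0.40 to 0.0428 and -0.19 to 0.25 at 6, 24 and 72 h against 0 h. Between diets it was -0.17 to 0.0484 at 6 h and -0.14 to 0.31 at 72 h, for AM21 -0.26 to 0.0245, and at 24 h against 0 h with AM21 -0.27 to 0.29. For miR-532-5p they gave -0.29 to 0.0111 at 72 h against 0 h in CHO-fed animals, and -0.12 to 0.0717 at 72 h against 0 h and -0.0299 to 0.18 at 72 h against 6 h in EtOH-fed animals. Between diets it was -0.12 to 0.0699 at 24 h and -0.22 to -0.17 at 0 and 24 h, and in controls -0.0665 to 0.0094 at 24 h against 0 h. The arm difference between diets was -0.0073 to 0.11, and that between 72 and 6 h was 0.55 to 0.78. Intervals rest on 1 spread per miRNA, estimated over all groups of a fit (3 animals each) and moderated across miRNAs. They do not reflect the spread within the groups compared alone.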
